A study of Homo sapiens with 5 samples.

Results

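GSK-3 and the beta-catenin destruction complex were followed through 10 genes, GSK3A, GSK3B, CTNNB1, APC, AXIN1, AXIN2, CSNK1A1, AMER1, FRAT1 and FRAT2. They were chosen by name from the platform annotation, as probes that named 1 of these symbols and no other gene, and they made up 10 of the 18417 genes measured. Each of the 10 had 1 such probe, so no choice between probes was needed, and no probe with several symbols named any of them. The RNA came from RS4.11, an established human leukemia line with a rearranged MLL gene, generally regarded as an early B lineage line. Control cells received the solvent DMSO (2 arrays), and treated cells received the kinase inhibitor SB216763 at 10 uM (3 arrays), both for 20 h. Total RNA was measured on whole-transcript arrays. The groups model 1 line, 1 dose and 1 time, and the labels do not say whether the arrays represent separate cultures. The p-values therefore reflect array-to-array spread alone, and that spread may be technical.

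GSK-3 is a constitutively active serine/threonine kinase encoded by GSK3A and GSK3B. In the destruction complex, the scaffolds Axin and APC hold beta-catenin while casein kinase 1 alpha primes it and GSK-3 phosphorylates it further, and the marked protein is then ubiquitinated and degraded. When GSK-3 is inhibited, by Wnt signalling or by a drug, beta-catenin protein can accumulate and enter the nucleus, where with TCF/LEF factors it activates genes that include AXIN2. SB216763 competes with ATP at the kinase, and the arrays measured transcripts, not kinase activity or protein.

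All 10 genes were above background on all 5 arrays, where background is the 95th percentile of 341 olfactory receptor genes on the same array. All values below are log2 expression values, and all differences are SB216763 minus control with n = 2 control and n = 3 SB216763 arrays. Across all genes the array medians lay between 6.77 and 6.84, and the median difference was 0.00. Arrays of different groups correlated across probes with a Pearson r of 0.989 to 0.991, and arrays within a group with 0.992 to 0.996. Of B cell precursor markers, PAX5, CD79B and IGLL1 were above background on all 5 arrays, while CD22, VPREB1, DNTT, RAG1 and RAG2 were above it on none.

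Of these genes, GSK3B rose 1.27-fold with SB216763, and it was the 1 member of 10 that passed limma with Benjamini-Hochberg adjustment over all genes. Over all genes 7.21% were called higher and 5.92% lower, so 1 of 10 higher and 0 of 10 lower is near that background. At an unadjusted p under 0.05 the fit gave 2 members higher and 3 lower, against 14.3% and 12.2% of all genes. The separation of the groups was more frequent than the calls. The 3 treated arrays lay wholly above both controls for 4 members (GSK3A, GSK3B, APC and CSNK1A1), against 21.6% of all genes, and wholly below them for 4 members (CTNNB1, AXIN1, AMER1 and FRAT1), against 19.9%. For APC and AMER1 the gap between the groups was under 0.01. Members' absolute differences had a median of 0.18, against 0.12 over all genes, and their signed differences a median of -0.04. The largest was that of FRAT1, at -0.46.

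**Figure D1:**
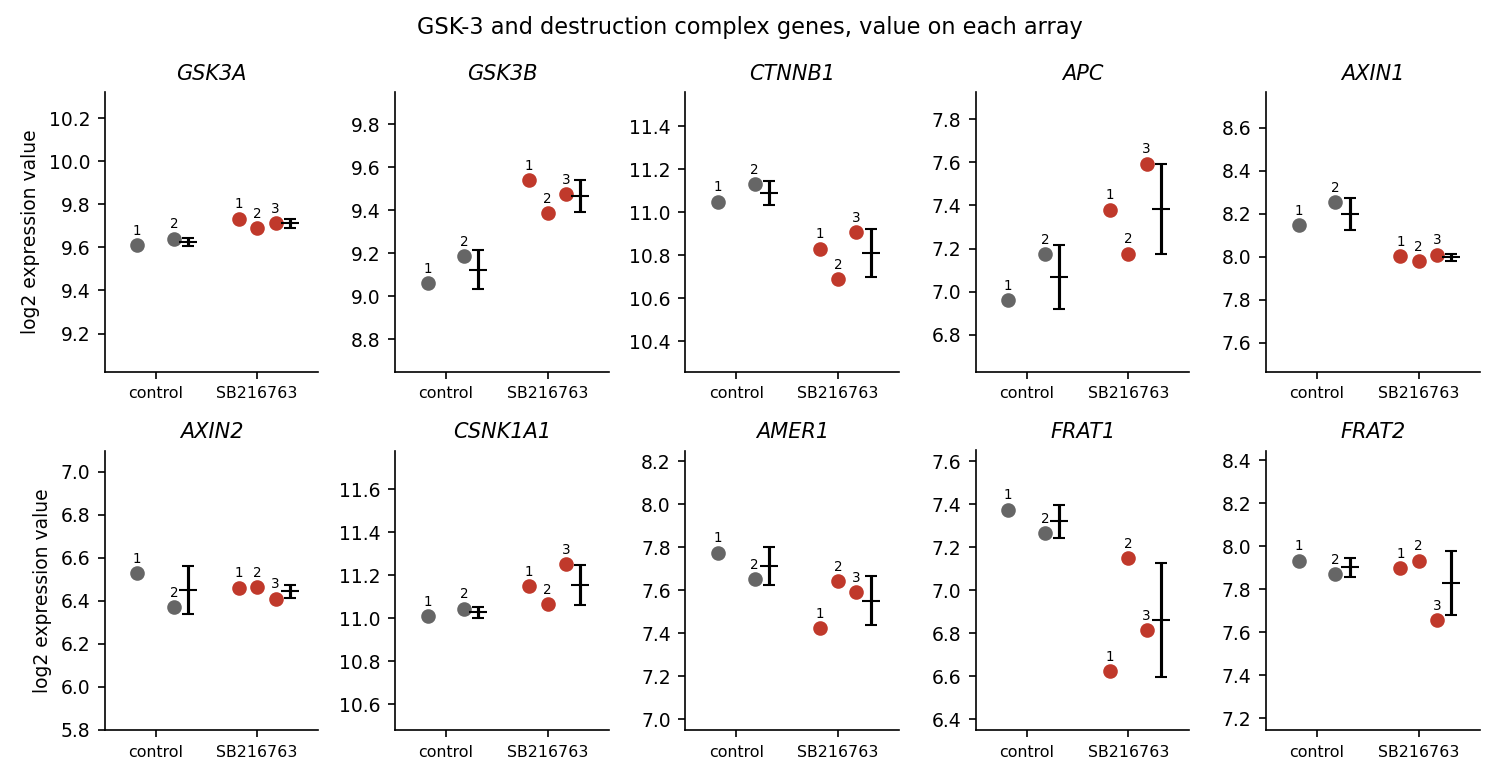
Log2 expression value (vertical axis, each panel spanning the same width of 1.3) of each gene on the 2 control arrays (grey) and the 3 SB216763 arrays (red), numbered by replicate, with the group mean ± SD in black. GSK3B is higher on every treated array, FRAT1 spreads most among the treated arrays, and the groups overlap for AXIN2 and FRAT2.

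The kinase genes are the inhibitor's own targets. GSK3B, which encodes GSK-3 beta, read 9.06 and 9.19 on the control arrays and 9.54, 9.39 and 9.47 on the SB216763 arrays. All treated arrays were higher than both controls, by at least 0.20, a gap larger than the range within either group. The mean went from 9.12 ± 0.09 (SD, n = 2) to 9.47 ± 0.08 (SD, n = 3), a difference of 0.34 (SE 0.09, adjusted p = 0.0403 by limma), or 1.27-fold with a 95% interval of 1.10 to 1.46. The call was lost when control replicate 1 (adjusted p = 0.235), control replicate 2 (0.126), SB216763 replicate 1 (0.165) or SB216763 replicate 3 (0.0976) was left out, and it held when SB216763 replicate 2 was left out (0.032). It was also lost after centring of the arrays on their medians (0.0544), with the replicate number as a block (0.110) and without moderation (0.147). The block takes nothing from SB216763 replicate 3, which has no control of its number. The difference itself stayed between 0.28 and 0.41 under all 13 other settings.

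GSK3A, which encodes GSK-3 alpha, read 9.61 and 9.64 in controls and 9.73, 9.69 and 9.71 with SB216763. The treated arrays were again all higher, but the gap between the groups was 0.05. The difference was 0.09 (SE 0.07, adjusted p = 0.540 by limma), and the 95% interval of its fold ran from 0.94 to 1.20. GSK3A passed under none of the 13 other settings. Within each array, the log2 ratio of GSK3B to GSK3A was -0.55 and -0.45 in controls and -0.19, -0.30 and -0.24 with SB216763. The ratio moved by 0.26, with no overlap between the groups, and the two-sided exact permutation p = 0.2 is the smallest that 2 against 3 arrays can give.

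The upstream sequences of both kinase genes are shown because GSK3B was the 1 member called and GSK3A was not. Each is the 250 bases before the gene's start in RefSeq (GRCh38.p14), read 5′ to 3′ on the gene's strand, with capitals marking the GC box (GGGCGG) and the CCAAT box on either strand. That of GSK3A lies at chr19:42242603-42242852 on the minus strand and that of GSK3B at chr3:120094448-120094697 on the minus strand.
GSK3A: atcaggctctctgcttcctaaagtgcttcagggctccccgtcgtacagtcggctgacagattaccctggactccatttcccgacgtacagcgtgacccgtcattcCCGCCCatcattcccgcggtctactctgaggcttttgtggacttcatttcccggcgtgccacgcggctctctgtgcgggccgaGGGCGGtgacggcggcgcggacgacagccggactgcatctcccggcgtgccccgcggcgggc
GSK3B: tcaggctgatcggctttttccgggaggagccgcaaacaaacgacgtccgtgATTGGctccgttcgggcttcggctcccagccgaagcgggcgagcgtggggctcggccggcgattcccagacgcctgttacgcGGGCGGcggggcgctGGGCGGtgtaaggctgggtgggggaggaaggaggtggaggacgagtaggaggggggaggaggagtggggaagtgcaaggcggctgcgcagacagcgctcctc
Both hold 2 GC boxes, a motif found in 42.6% of the 35116 RefSeq promoters of that length. GSK3B alone of the pair holds a CCAAT box, which 32% of all promoters have. The longest stretch the pair shares is 8 bases, and 65.2% of the GSK3A bases and 68.8% of the GSK3B bases are G or C, against a median of 58% over all promoters.

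CTNNB1 encodes beta-catenin, the substrate of the complex, whose level GSK-3 is known to control at the protein. Its transcript read 11.05 and 11.13 in controls and 10.83, 10.69 and 10.91 with SB216763. Every treated array was lower than both controls, by at least 0.14. The mean was 11.09 ± 0.06 (SD, n = 2) and 10.81 ± 0.11 (SD, n = 3), a difference of -0.28 (SE 0.09, adjusted p = 0.0918 by limma), with a 95% interval of -0.49 to -0.07. It passed under 4 of the 13 other settings, namely without dim genes (adjusted p = 0.0491), after quantile normalization (0.0392), with a variance trend and robust settings (0.0341) and with array weights (0.0280). Over all 13 the adjusted p ran from 0.0280 to 0.328, and the difference from -0.33 to -0.22.

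The CTNNB1 upstream sequence is shown, with the same marks, as that of the substrate gene. It lies at chr3:41199255-41199504 on the plus strand.
CTNNB1: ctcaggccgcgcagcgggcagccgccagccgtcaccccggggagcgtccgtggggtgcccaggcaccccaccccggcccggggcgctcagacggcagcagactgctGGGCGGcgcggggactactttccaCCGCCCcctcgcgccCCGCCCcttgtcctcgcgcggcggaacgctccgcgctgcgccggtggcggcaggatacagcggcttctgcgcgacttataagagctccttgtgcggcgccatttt
It holds 3 GC boxes and no CCAAT box, and 74.4% of its bases are G or C.

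The scaffold genes did not move as a group. APC, a large scaffold whose loss is a common event in colorectal cancer, read 6.96 and 7.17 in controls and 7.38, 7.18 and 7.59 with SB216763. Its treated arrays varied by 0.42, and SB216763 replicate 2 sat level with control replicate 2. The difference was 0.32 (SE 0.13, adjusted p = 0.174 by limma). APC passed with array weights alone among the 13 other settings (adjusted p = 0.0423, in a range up to 0.635).

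AXIN1, the constitutive scaffold that binds GSK-3, APC and beta-catenin, read 8.15 and 8.25 in controls and 8.00, 7.98 and 8.01 with SB216763. The treated arrays agreed to within 0.03 and were all lower than the controls, by at least 0.14. The difference was -0.20 (SE 0.08, adjusted p = 0.143 by limma), and AXIN1 passed under none of the 13 other settings.

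AXIN2 is the inducible Axin gene and a widely used transcript readout of beta-catenin activity. It read 6.53 and 6.37 in controls and 6.46, 6.46 and 6.41 with SB216763. The treated values fell inside the range of the 2 controls. The difference was -0.00 (SE 0.08, adjusted p = 0.984 by limma), and the 95% interval of its fold ran from 0.87 to 1.14. Of the 10 genes AXIN2 sat closest to background, 0.20 to 0.43 above it.

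AMER1, also known as WTX, encodes a membrane-linked adaptor that binds APC. It read 7.78 and 7.65 in controls and 7.42, 7.64 and 7.59 with SB216763. The treated arrays were lower, but SB216763 replicate 2 lay only 0.009 below control replicate 2. The difference was -0.16 (SE 0.10, adjusted p = 0.346 by limma), with array weights alone giving a call (adjusted p = 0.0471, in a range up to 0.761).

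CSNK1A1 encodes casein kinase 1 alpha, the kinase that primes beta-catenin for GSK-3. It read 11.01 and 11.04 in controls and 11.15, 11.07 and 11.25 with SB216763. The treated arrays were all higher, by as little as 0.02. The difference was 0.13 (SE 0.09, adjusted p = 0.408 by limma), and the 95% interval of its fold ran from 0.95 to 1.25. The related gene CSNK1A1L has its own probe, and how far the 2 probes tell these transcripts apart was not tested.

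FRAT1 and FRAT2 encode GSK-3 binding proteins that compete with Axin for the kinase. FRAT1 read 7.38 and 7.27 in controls and 6.63, 7.15 and 6.82 with SB216763. All treated arrays were lower, yet they differed among themselves by 0.52, the widest range of any member in either group. The mean went from 7.32 ± 0.08 (SD, n = 2) to 6.86 ± 0.27 (SD, n = 3), a difference of -0.46 (SE 0.15, adjusted p = 0.0848 by limma) with a 95% interval of -0.80 to -0.12. SB216763 replicate 2 was the array nearest the controls. Without it the difference was -0.60 and passed (adjusted p = 0.0149), as it did without dim genes (0.0422) and with array weights (0.00473), while the adjusted p reached 0.427 under the other settings. Its lowest value lay 0.51 above background.

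FRAT2 read 7.93 and 7.87 in controls and 7.90, 7.93 and 7.66 with SB216763. The groups overlapped, with SB216763 replicate 3 the 1 low array. The difference was -0.07 (SE 0.10, adjusted p = 0.736 by limma), and the 95% interval of its fold ran from 0.81 to 1.12. Within each array the log2 ratio of FRAT1 to FRAT2 was -0.56 and -0.60 in controls and -1.27, -0.78 and -0.84 with SB216763. The ratio moved by -0.39 with no overlap, again at the smallest exact permutation p of 0.2 (two-sided). Of the 3 paralog pairs compared this way, the third, AXIN1 against AXIN2, moved by -0.20 without overlap and also gave the exact permutation p of 0.2, and adjusted over the 3 pairs each p was 0.2.

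The 95% intervals of the FRAT1 and FRAT2 differences overlap, that of FRAT2 running from -0.31 to 0.17. The upstream sequences of these neighbouring genes on chromosome 10 are shown because the windows, at separate places, hold an identical stretch. Each is the 250 bases before the gene's start in RefSeq (GRCh38.p14), 5′ to 3′ on the gene's strand, FRAT1 at chr10:97319021-97319270 on the plus strand and FRAT2 at chr10:97334730-97334979 on the minus strand. Capitals mark the longest stretch that both hold.
FRAT1: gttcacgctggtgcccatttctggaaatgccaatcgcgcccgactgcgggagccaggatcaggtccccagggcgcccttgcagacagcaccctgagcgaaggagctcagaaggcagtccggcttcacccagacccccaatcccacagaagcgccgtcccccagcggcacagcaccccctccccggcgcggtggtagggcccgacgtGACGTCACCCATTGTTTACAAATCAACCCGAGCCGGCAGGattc
FRAT2: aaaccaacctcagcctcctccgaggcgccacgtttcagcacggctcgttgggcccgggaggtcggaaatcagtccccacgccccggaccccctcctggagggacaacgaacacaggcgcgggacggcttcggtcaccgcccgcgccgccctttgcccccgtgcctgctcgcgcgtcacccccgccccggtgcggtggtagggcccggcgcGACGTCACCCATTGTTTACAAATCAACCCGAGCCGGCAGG
The shared stretch is 40 bases long, starting 44 bases before the FRAT1 start and 40 bases before that of FRAT2. The full CRE letters, TGACGTCA, begin 45 bases before the FRAT1 start, so all but the first of them lie inside the shared stretch. In FRAT2 the base before the stretch differs, and its window holds the short CRE core TGACG on either strand at 2 places but not the full letters. The full letters were in 1.65% of all promoters, and the short CRE core, which the full letters contain, in 21.2%. FRAT1 also holds 2 CCAAT boxes and no GC box, while FRAT2 holds 3 GC boxes and no CCAAT box.

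RefSeq promoters were matched for 9 of the 10 genes, 11 promoters in all since APC and CSNK1A1 have 2 each. AXIN2 had no entry. The TCF/LEF core CTTTGA, on either strand, was in 0 of the 11 windows, against 11.2% of all promoters. The short CRE core TGACG was in 6 of the 11 windows, against 21.2% of all promoters. Those windows were of GSK3A, CTNNB1, FRAT1, FRAT2 and both of CSNK1A1. The GC box was in 8 of the 11, with 8 copies in AXIN1, against 42.6% of all promoters. The E-box CACGTG was in 1, an APC promoter, against 6.34%. The shares were not tested or matched for G and C content, which was 38% to 77.6% in these windows against a median of 58%. These matches describe letters only and do not show binding.

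**Figure D2:**
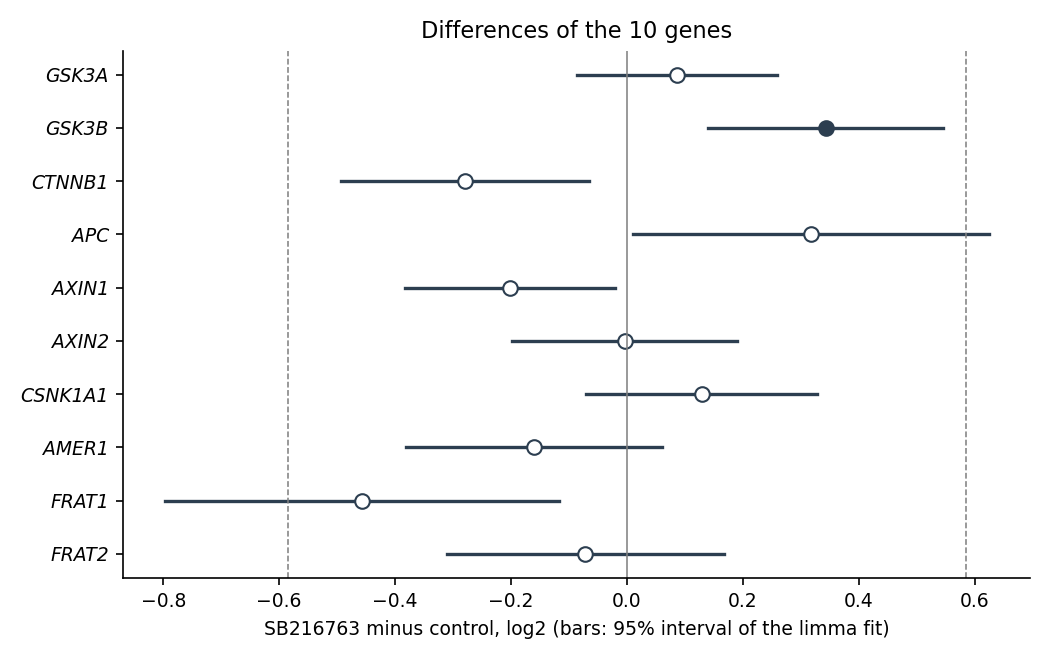
SB216763 minus control on the log2 scale (horizontal axis) for each gene, with the 95% interval of the limma fit, the filled point passing the adjusted threshold and dashed lines at a 1.5-fold change. GSK3B is the 1 filled point, and the intervals of APC and FRAT1 reach past 1.5-fold.

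The 95% intervals set these differences against array-to-array spread alone, which may be technical. For 8 of the 10 genes the 95% interval lay within a 1.5-fold change in either direction, as it did for 84.9% of all genes, and the exceptions were APC, up to 1.54-fold higher, and FRAT1, up to 1.74-fold lower. AXIN2, among the 8, lay only 0.20 to 0.43 above background, which limits what its interval can show. The median standard error was 0.09 for the members and for all genes.

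**Figure D3:**
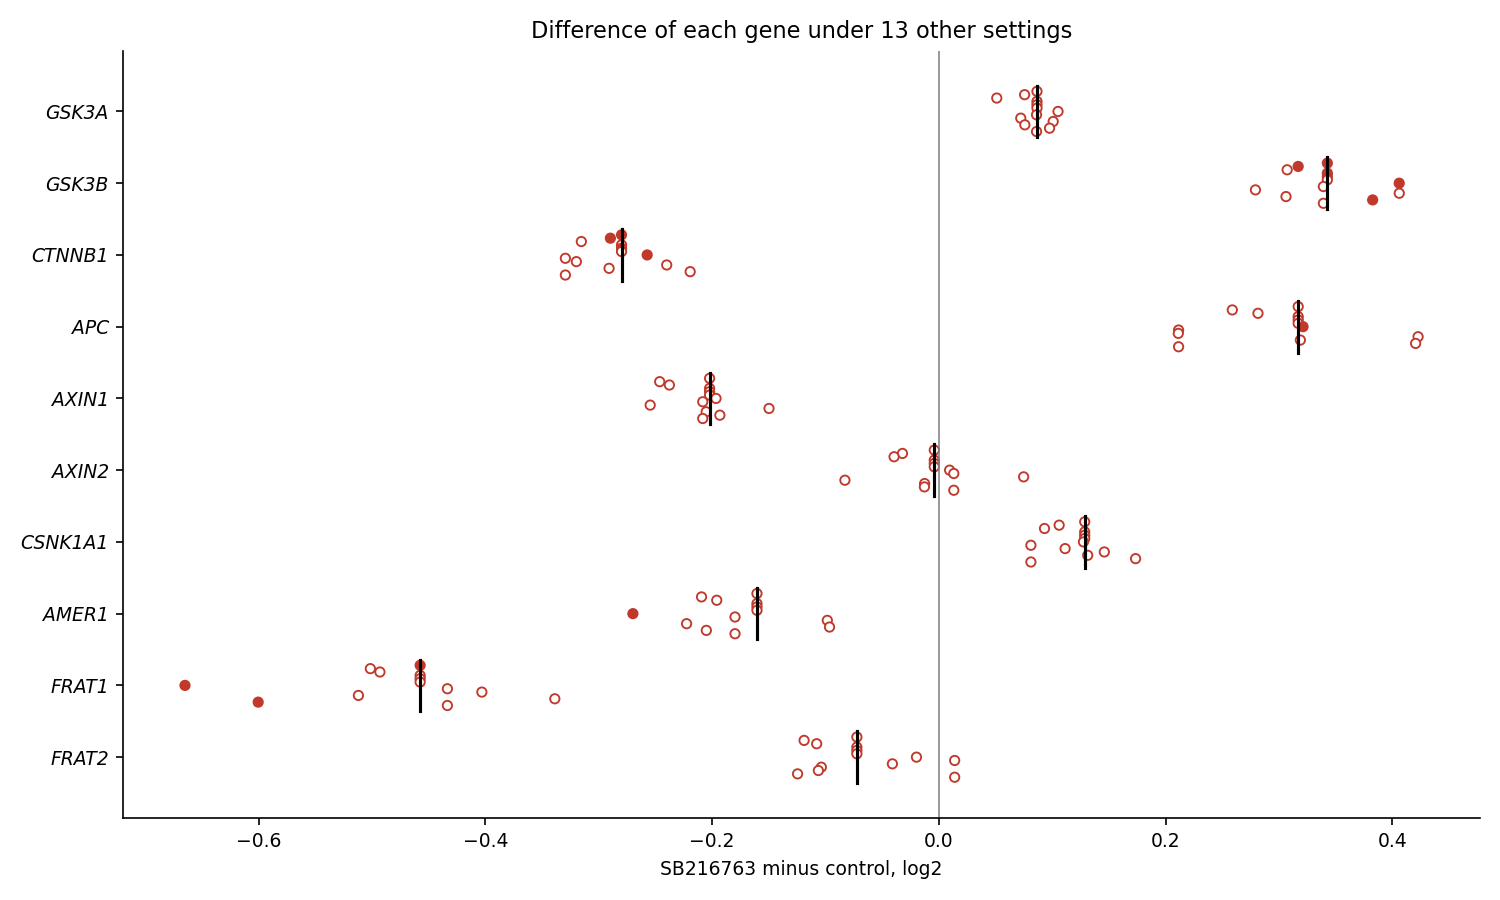
SB216763 minus control on the log2 scale (horizontal axis) for each gene under 13 other settings of the analysis, with filled points passing the adjusted threshold and black bars at the value reported in the text. GSK3B is called under 6 of the 13, CTNNB1 under 4 and FRAT1 under 3, and AXIN2 and FRAT2 cross 0.

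The profiles nearest to GSK3B and CTNNB1 were taken from the 12071 genes above background on every array. With so many genes and only 5 arrays, close profiles can be found for many genes, and no reference distance was computed. Likeness was the root mean square distance over the 5 arrays after each gene was centred on its own mean. Nearest to GSK3B were CASP4 at 0.0090, GYS1 at 0.0167 and COG3 at 0.0170. Nearest to CTNNB1 were USP5 at 0.0099, TOP2A at 0.0100 and A4GALT at 0.0126. Of these nearest genes limma called CASP4 and GYS1 alone. CASP4 read 8.33 and 8.44 in controls and 8.82, 8.66 and 8.75 with SB216763, the same order of arrays as GSK3B. TOP2A read 11.01 and 11.11 in controls and 10.79, 10.65 and 10.89 with SB216763, the same order as CTNNB1.

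The 10 genes were set beside 8 lists of their working partners, 75 measured genes in all, of which 9 were called higher and 5 lower by limma. Over all genes 7.21% were called higher and 5.92% lower. These shares are the reference for the counts of each list below, and no list was tested against them. Among proteins that control the turnover of Axin and beta-catenin, 2 of 12 rose and 1 fell, with a list median of 0.05. TNKS, which encodes tankyrase, the enzyme that marks Axin for destruction, read 9.32 and 9.25 in controls and 9.76, 9.69 and 9.73 with SB216763, and rose by 0.44 (SE 0.08, adjusted p = 0.0110). RNF146, the ubiquitin ligase that recognises the tankyrase mark, read 8.89 and 8.81 in controls and 9.31, 9.13 and 9.31 with SB216763, and rose by 0.40 (SE 0.09, adjusted p = 0.0250). The groups did not overlap for either gene. TNKS2, the second tankyrase gene, differed by 0.01 (adjusted p = 0.978). USP7, a deubiquitinase, fell by 0.31 (SE 0.08, adjusted p = 0.0416).

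Of the kinases and scaffolds that act on GSK-3, 1 of 10 measured rose and 2 fell, with a median of 0.07. PRKACB, a catalytic subunit of protein kinase A, read 8.47 and 8.56 in controls and 9.07, 9.01 and 9.09 with SB216763, and rose by 0.55 (SE 0.08, adjusted p = 0.00505). AKT1 and RPS6KB1, which encode other kinases of this list, fell by 0.29 (adjusted p = 0.0472) and 0.38 (adjusted p = 0.0412). At an unadjusted p under 0.05 the list had 3 genes higher and 4 lower, against 14.3% and 12.2% of all genes. Of 4 other casein kinase 1 genes, CSNK1G1 rose by 0.44 (adjusted p = 0.0326), and of 9 subunits of the phosphatase PP2A, PPP2R5B rose by 0.33 (adjusted p = 0.0427). Of the 5 genes of the SCF ligase that ubiquitinates beta-catenin limma called 0. The 1 with an unadjusted p under 0.05 was its recognition subunit BTRC, picked out afterwards, at 0.43 (adjusted p = 0.0627).

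Of 14 measured feedback and target genes of beta-catenin beside AXIN2, 1 was called higher and 1 lower, with a median of -0.07. At an unadjusted p under 0.05 the fit gave 1 higher and 4 lower, against 14.3% and 12.2% of all genes. The 4 lower were MYC, NKD2, CCND1 and ZNRF3. NKD2, CCND1 and ZNRF3, not called and picked out afterwards, differed by -0.39, -0.34 and -0.23. MYC, the growth-promoting transcription factor, read 10.75 and 10.86 in controls and 9.74, 9.72 and 9.80 with SB216763, a fall of 1.05 (SE 0.08, adjusted p = 0.000588). RNF43, which encodes a ligase that removes Wnt receptors, was called higher (adjusted p = 0.0219) but was above background on none of the controls and on 2 of the 3 treated arrays, so no fold is given. LEF1, DKK1, DKK4 and LGR5 were above background on no array, so these arrays hold little information on them. Of the 8 measured junction partners of beta-catenin limma called 0, and 1 had an unadjusted p under 0.05. Of these 8, the cadherin genes CDH1, CDH2, CDH3 and CDH5 and the alpha-catenin gene CTNNA2 were above background on no array.

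Of 15 measured genes whose proteins are GSK-3 substrates, 3 rose and 2 fell, with a median of -0.01. CDC25A, a cell cycle phosphatase, fell by 1.10 (SE 0.08, adjusted p = 0.000533), and MYC is also in this list. TSC2, which encodes a restraint on mTOR signalling, rose by 0.52 (SE 0.08, adjusted p = 0.00780). The other 2 called higher were JUN, which falls outside the naming rule and was picked out afterwards, and GYS1, also among the nearest profiles of GSK3B. JUN was not above background on the controls and rose at least 1.31-fold, and GYS1, glycogen synthase, rose by 0.34 (adjusted p = 0.0359). Of the 14 calls in the 8 lists, limma kept 0 when either control array was left out, and 5, 11 and 7 when SB216763 replicate 1, 2 or 3 was. It kept 2 of the 14 without moderation, 7 with the replicate number as a block, and 13 or 14 under each of the other 6 settings.

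**Figure D4:**
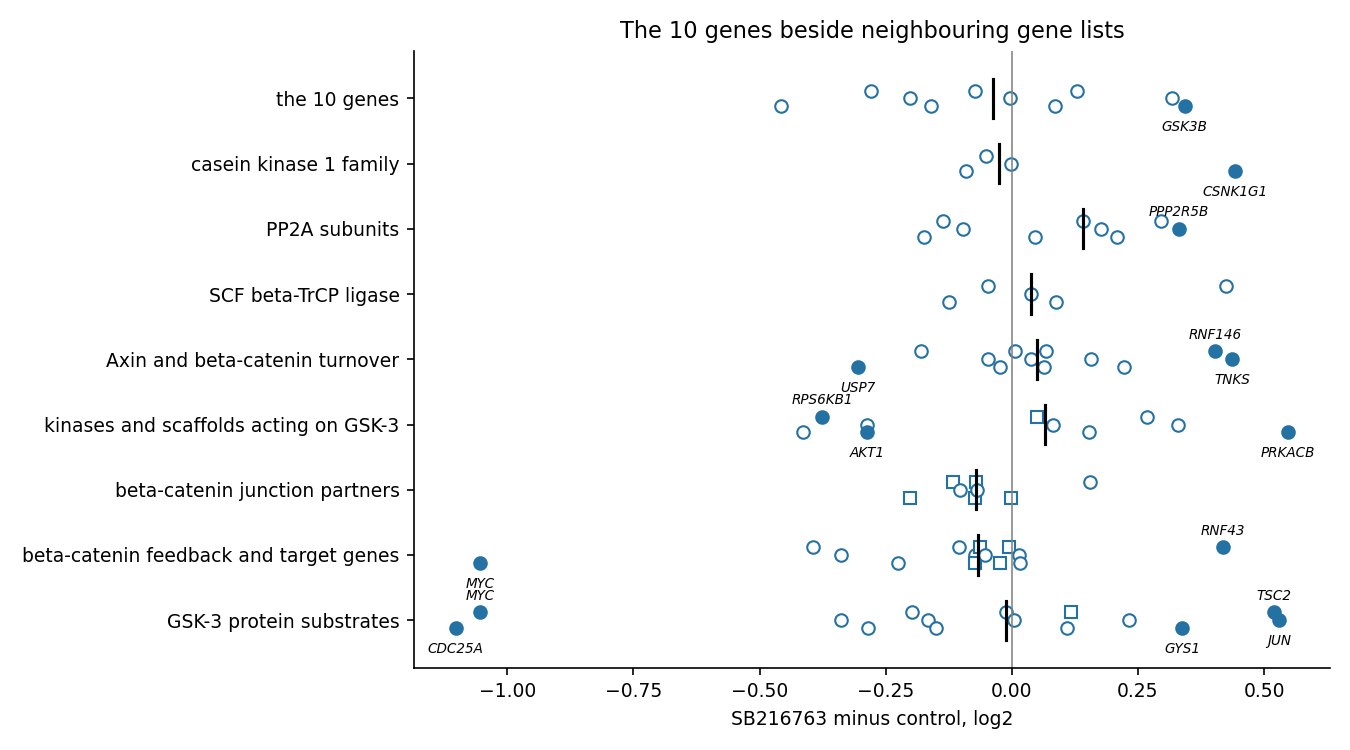
SB216763 minus control on the log2 scale (horizontal axis) for the 10 genes (top row) and for the measured genes of 8 lists, with filled symbols for limma calls, squares for genes above background on no array and black bars at each list's median. The 10 genes lie between -0.46 and 0.34, while MYC and CDC25A lie beyond -1.

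Some markers listed for other blood cell types differed between the same groups, and several were already high in controls. In group mean the controls read 11.92 for LYZ, 11.50 for TYROBP and 10.74 for CD68, but 6.44 for MPO and 6.35 for CD14. The lineage of the cells was not tested. Of 11 measured myeloid markers, all above background, CSF3R, LYZ, CD68 and TYROBP rose and 7 were not called, with a list median of 0.27. Among those not called, MPO, ELANE, CEBPA and CD14 had negative differences, of -0.23, -0.05, -0.01 and -0.003. The log2 of the list's summed linear values was 13.38 to 13.44 on the control arrays and 14.08 to 14.12 with SB216763. In this sum the brightest genes weigh most. Of 12 T and NK cell markers, CD4 and NKG7 rose, 7 were above background on no array, among them CD3D, CD3E and CD3G, and 10 of the 12 were not called, with a list median of -0.01. The summed level of this list was 11.70 to 11.74 in controls and 12.30 to 12.36 with SB216763, while CD4 went from 10.02 to 10.71 and NKG7 from 10.44 to 11.31 in group mean. Of 10 measured B cell precursor markers BLNK alone was called, and 5 were above background on no array. BLNK was not above background on the controls and rose at least 1.53-fold. The summed level of this list was 9.62 to 9.66 in controls and 9.55 to 9.82 with SB216763. Of 8 measured erythroid and megakaryocyte markers none was called by limma, and the count at an unadjusted p under 0.05 was 0. The part of these markers in the difference of GSK3B or any other member was not tested, and in such bulk samples more or fewer cells of a type cannot be told apart from more or less RNA per cell.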

How the data were processed

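The authors deposited 1 table of log2 expression values per probe, made with Affymetrix Expression Console per the submitters' processing notes. The tool's version, its summarisation method and the genome build were not given in the sources used here. That the values are log2 follows from their range. Probes were named through the platform annotation, with 19460 of 33297 naming 1 symbol. Of these, 19429 matched a RefSeq gene table (GRCh38.p14), and 0 symbols were updated. The brightest probe stood for each gene. Groups came from sample titles and were compared over all 18417 genes with limma 3.58.1 in R 4.3.3 (lmFit, eBayes), two-sided, Benjamini-Hochberg adjusted, threshold 0.05. The number of arrays limits the precision. A fold where 1 group was nowhere above background is a lower bound against background, or the gene's own value where higher. Upstream sequences were read from a RefSeq promoter table. The procedure was tested on simulated data. Named genes were the 10 members, up to 3 called genes per list with the smallest p, and the 3 nearest profiles of GSK3B and CTNNB1. The members, lists, paralog pairs and motifs were chosen with earlier results of these data known. The alternatives are those of the closing section.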

Additional observations from a re-analysis of the deposited data

How the results depend on the processing

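Beside the reported fit, which called 1328 genes higher and 1090 lower, 13 alternatives were run. Without moderation 126 genes were higher and 125 lower, and with array weights 2568 and 2152. Leaving out 1 array at a time gave 0 to 1680 genes higher and 0 to 1179 lower, with 1 call when control replicate 1 was left out (3603 genes had an unadjusted p under 0.05) and 0 calls when control replicate 2 was (3960 genes). The lone control left in those fits is taken to vary as the treated arrays do. Among the 10 members the count called higher was 1, and it was 0 with centred arrays, without moderation and with the replicate number as a block, 2 with array weights, and 0 to 1 with 1 array left out. The count called lower was 0, and it was 2 without dim genes, 1 after quantile normalization, 1 with the trend and robust settings, 3 with array weights, and 0 to 1 with 1 array left out. The mean of a gene's probes, and a fit of all probes singly, called GSK3B alone, as reported, since each member has 1 probe. AXIN2 changed sign with array weights (0.0095) and with the replicate block (0.013), and ran from -0.083 to 0.075 with 1 array left out. FRAT2 changed sign with the replicate block (0.014) and ran from -0.12 to 0.014 with 1 array left out. The other 8 members kept their sign under every alternative. The array weights gave SB216763 replicate 1 a weight of 8.54 against 0.31 to 0.76 for the others. Arrays of the 2 groups share only a replicate number. SB216763 replicate 3 has no control of its number, so the block gives the same differences as leaving that array out. The 2 settings are therefore not separate checks of a difference. Deviations of same-numbered arrays correlated at -0.05 and -0.10 across genes, and the block called 941 genes higher and 889 lower. The cause of these shifts was not tested. The number of arrays and, for AXIN2 and FRAT1, the small margin over background limit what can be seen.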
